A study of Mus musculus with 6 samples.

Results

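The B7 family ligands are 8 genes, taken by symbol: Vtcn1 (B7x), Cd274 (PD-L1), Pdcd1lg2 (PD-L2), Cd80 (B7-1), Cd86 (B7-2), Icosl (ICOS ligand), Cd276 (B7-H3) and Vsir (VISTA). They were read from 9 probes, and each gene is represented by its brightest probe on average. All 8 had a probe among 19929 genes with 1, and 7 of the 8 had a high enough mean over all arrays to be tested among 13950 genes. Pdcd1lg2 lay below that limit, a mean of 5.471 on the log2 scale.

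Expression was measured by single-colour Affymetrix arrays in AI4 CD8 T cells, which carry both chains of a transgenic T cell receptor for a beta cell antigen. The cells were sorted from pooled mouse pancreata by CD8 and by a MimA2/H-2Db tetramer. Both groups of 3 arrays had the strain label C57BL/6.H2g7/g7 background. The AI4 group came from AI4 mice, which developed type 1 diabetes (T1D), and the Rip-B7xAI4 group from mice that also carry the Rip-B7x transgene and were resistant to T1D. Rip is the rat insulin promoter, so the transgene places B7x on beta cells and not on the sorted T cells. The sources used here give no age, sex or number of mice per pool. The transgene and resistance to diabetes go together in this design, so their effects cannot be told apart. The arrays are labelled biological replicates.

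B7 ligands are cell surface proteins of the immunoglobulin superfamily that set how a T cell responds once its antigen receptor is engaged. Cd80 and Cd86 are induced on dendritic cells, macrophages and B cells and bind Cd28, which activates, and Ctla4, which inhibits. Cd274 and Pdcd1lg2 bind the inhibitory receptor Pdcd1 (PD-1), Icosl binds the costimulatory receptor Icos, and Vtcn1, Cd276 and Vsir are largely inhibitory. T cells themselves can make several of these ligands, among them Cd274, Cd80, Cd86 and Vsir.

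The stretches before the start sites of Vtcn1, Cd274 and Pdcd1lg2 are shown because the first is the natural promoter that the transgene leaves out, and the other genes are neighbours on chromosome 19. They are the 250 bases before each start in RefSeq, build GRCm38.p6, all on the plus strand, at chr3:100825209-100825458, chr19:29367188-29367437 and chr19:29410669-29410918. Capitals mark a match to the NF-kappaB motif.
Vtcn1: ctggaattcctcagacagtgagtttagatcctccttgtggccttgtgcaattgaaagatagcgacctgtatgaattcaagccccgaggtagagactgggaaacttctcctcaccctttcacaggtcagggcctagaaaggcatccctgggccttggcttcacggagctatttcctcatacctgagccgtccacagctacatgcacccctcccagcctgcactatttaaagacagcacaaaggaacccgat
Cd274: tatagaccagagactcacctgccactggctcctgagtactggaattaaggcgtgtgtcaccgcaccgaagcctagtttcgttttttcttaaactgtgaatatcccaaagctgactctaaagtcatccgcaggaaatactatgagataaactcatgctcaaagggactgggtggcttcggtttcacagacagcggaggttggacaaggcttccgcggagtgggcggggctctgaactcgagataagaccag
Pdcd1lg2: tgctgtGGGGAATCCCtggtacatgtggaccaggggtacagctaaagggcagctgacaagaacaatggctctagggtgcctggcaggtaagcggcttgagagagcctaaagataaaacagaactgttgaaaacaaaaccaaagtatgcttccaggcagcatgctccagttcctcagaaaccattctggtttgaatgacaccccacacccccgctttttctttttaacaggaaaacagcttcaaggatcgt
Promoters were matched for 7 of the 8 genes, all but Cd86. On both strands, the interferon regulatory factor motif GAAANNGAAA had 0 matches in any of the 7, against 2.98% of 32851 RefSeq promoters of the same length. The NF-kappaB motif matched Pdcd1lg2, at GGGGAATCCC, and Icosl, at GGAGCTCCCC, against 7.25% of all promoters. Such matches describe letters only, since binding was not measured here.

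The arrays had median log2 values of 5.94 to 6.10, and pairs of arrays correlated at 0.875 to 0.959 over all probes. The sorted cell type was checked by its markers: T cell markers (8 of 10 with a probe) had a mean of at least 10.26 log2 in every array. Of these 8, 4 were higher on average in Rip-B7xAI4 and 4 lower, both CD8 chains among the lower. Cd8a stood at 10.89, 10.43 and 10.10 in AI4 and at 9.71, 10.42 and 9.21 in Rip-B7xAI4. Cd8b1 stood at 10.48, 11.34 and 11.49 in AI4 and at 9.53, 10.73 and 10.05 in Rip-B7xAI4. The groups overlapped for both. The mean of 18 myeloid markers ranged from 5.93 to 6.54 over the AI4 arrays and was 8.84, 6.10 and 8.74 in Rip-B7xAI4 replicates 1, 2 and 3. In AI4 replicate 1, 422 tested genes lay at least 1 log2 below each of the other 5 arrays, against 4 to 66 in the other arrays.

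No B7 ligand passed the test between the groups. In limma, 0 of the 7 tested members reached an adjusted p of 0.05 and 0 had an unadjusted p below 0.05, where 0.00717% and 8.73% of all tested genes did. The groups overlapped for all 8 members, while 17.9% of tested genes had groups that did not overlap. The median difference, always Rip-B7xAI4 minus AI4, was -0.01 on the log2 scale over the 7 tested members and -0.05 over all 8, beside -0.10 for the tested genes as a whole. Differences were positive for 3 of the 7 and negative for 4, and positive for 4 after quantile normalization or median centring. The number of arrays limits this: the median standard error of a tested gene was 0.23 log2.

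**Figure D1:**
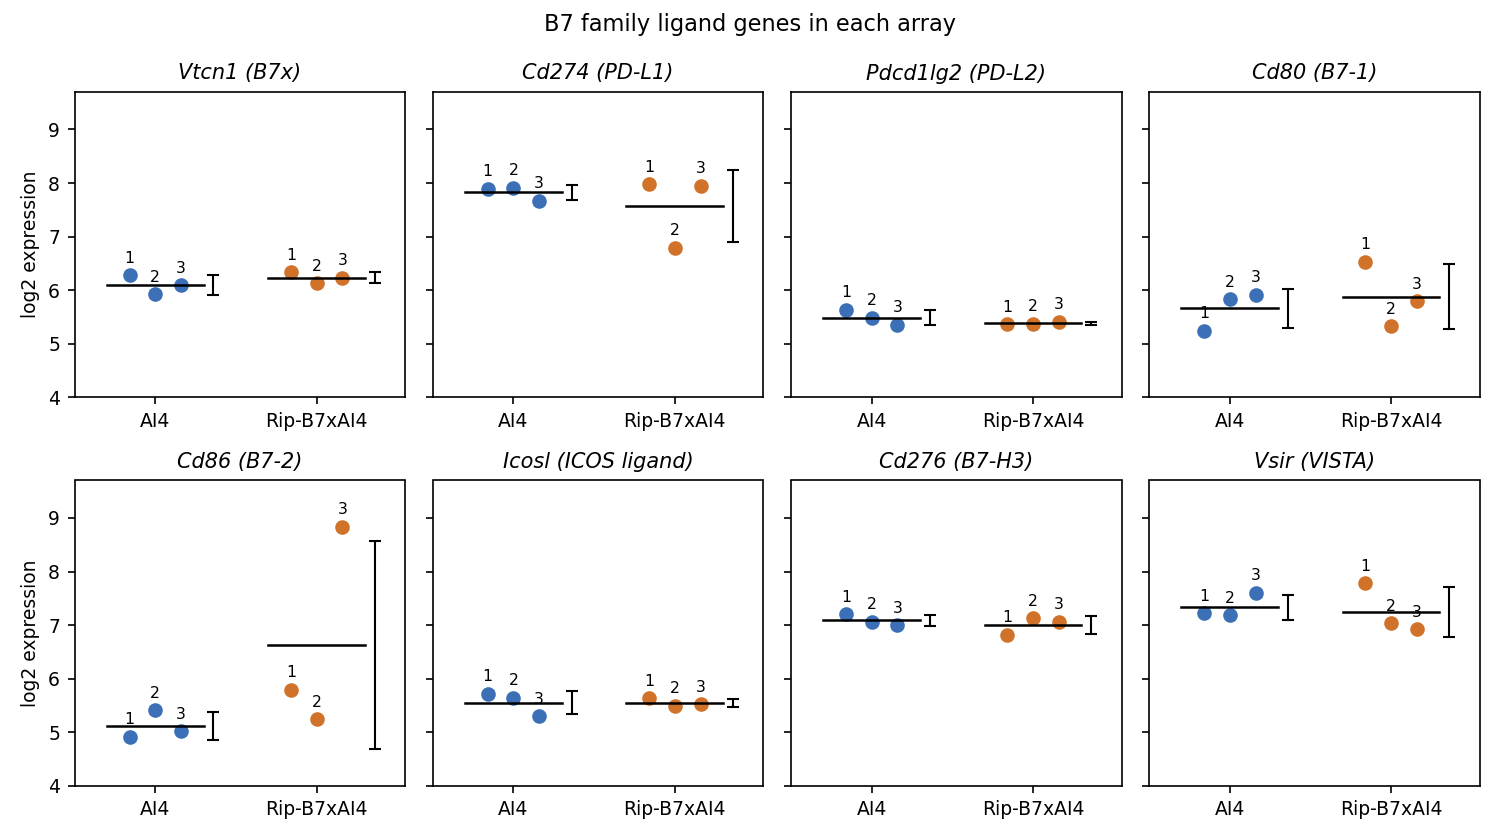
Log2 expression (y axis) of each B7 ligand gene in the 3 AI4 arrays (blue) and the 3 Rip-B7xAI4 arrays (orange), numbered by replicate, with the mean (line) and SD (bar). The groups overlap in all 8 panels, and Cd86 in Rip-B7xAI4 replicate 3, at 8.84, is the point farthest from the rest of its panel.

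Vtcn1, the gene of the transgene and an inhibitory ligand, stood at 6.28, 5.92 and 6.09 log2 in AI4 replicates 1, 2 and 3. In Rip-B7xAI4 it stood at 6.33, 6.13 and 6.23. The highest AI4 array lay between the Rip-B7xAI4 arrays, and the 6 values spanned 0.42. The means were 6.10 ± 0.18 (SD, n = 3) and 6.23 ± 0.10 (SD, n = 3). The difference was 0.13 ± 0.17 (SE, limma), with a 95% interval of -0.28 to 0.55 (adjusted p = 0.733). A rise of over 1.46-fold in the probe's value lay outside that interval. The 6 values lay at -0.16 to 0.40 from their array medians, and no background measure was used. The interval thus bounds the probe's value and not the amount of RNA. The Vtcn1 values are no check of the labels, since the transgene is meant for beta cells. The sources used here do not say whether the probe reads the transgene's RNA. Of the 11 beta cell markers 7 were tested and 0 passed, with a median difference of -0.17 beside the -0.10 of all tested genes. Ins2, which encodes insulin, stood at 6.16, 6.20 and 6.26 in AI4 and at 5.70, 6.42 and 6.36 in Rip-B7xAI4, with groups that overlapped.

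Cd86, a ligand of Cd28 and Ctla4, had the widest range of the 8, 3.93 on the log2 scale. It stood at 4.91, 5.41 and 5.02 in AI4 and at 5.79, 5.24 and 8.84 in Rip-B7xAI4. Replicate 3 alone was high, 3.05 above the next array, while replicate 2 lay within the AI4 values. The AI4 mean of Cd86, 5.11, lay below the brightness limit of 5.471. Cd86 was tested, at a mean of 5.868 over all arrays, only through its Rip-B7xAI4 values. A gap of that size above the other 5 arrays was seen in replicate 3 for 5 of the 13950 tested genes (0.0358%), Cd86 among them. The others were Vcam1, an adhesion molecule, Anpep, a surface peptidase, Myo9a, an unconventional myosin read here at its brightest probe, and the olfactory receptor gene Olfr578. The difference between the groups was 1.51 ± 0.88 (SE), with a 95% interval of -0.60 to 3.61 (limma adjusted p = 0.588). Without Rip-B7xAI4 replicate 3 it was 0.40 ± 0.27, and without replicates 1 and 3 together 0.12 ± 0.32.

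Some markers of antigen presenting cells were high in that array as well. The mean of the myeloid markers was high in replicates 1 and 3, and Cd86 was 5.79 in replicate 1. Single myeloid markers differed between these 2 arrays in both directions. Itgam stood at 8.87 in replicate 1 and 6.85 in replicate 3, and Csf1r at 7.11 and 8.81. All 17 tested members of the list had a positive difference, beside 39% of all tested genes. The count is not free of the filter, which uses the mean over all arrays. Adgre1 and Mrc1, with AI4 means of 5.30 and 5.34, lay below the limit of 5.471 in AI4 and were tested through their Rip-B7xAI4 values. Ms4a7, the untested member, differed by 0.27. The 10 dendritic cell markers did not move as 1 group: 7 were tested, 0 passed, 3 differences were positive and 4 negative, and the median was -0.04. Xcr1 and Clec9a, which define cross-presenting dendritic cells and lie below the brightness limit on average, were high in replicate 3 only and were picked out after their values were seen. Xcr1 stood at 7.75 there and at 4.57 to 5.46 in the other 5 arrays, and Clec9a at 7.85 and at 4.36 to 4.63. Siglech (7.0) and Flt3 (6.75) were also highest in replicate 3, whereas Ccr7, at 7.76, was lowest there, Zbtb46, Cd209a, Batf3 and Cd83 lay within the range of the other arrays, and Itgax was high in all 3 Rip-B7xAI4 arrays, at 7.29, 6.73 and 7.10. The mean of the 5 MHC class II genes was 9.25 in replicate 3, 8.56 in replicate 1, 6.58 in replicate 2 and between 6.19 and 6.88 in the AI4 arrays. B cell markers (7 of 8 with a probe) had means between 5.82 and 6.22 in the AI4 arrays and between 5.86 and 6.48 in the others. What these cell types contribute to the Cd86 value was not tested, and in bulk RNA more cells of a type and more RNA per cell cannot be told apart.

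**Figure D2:**
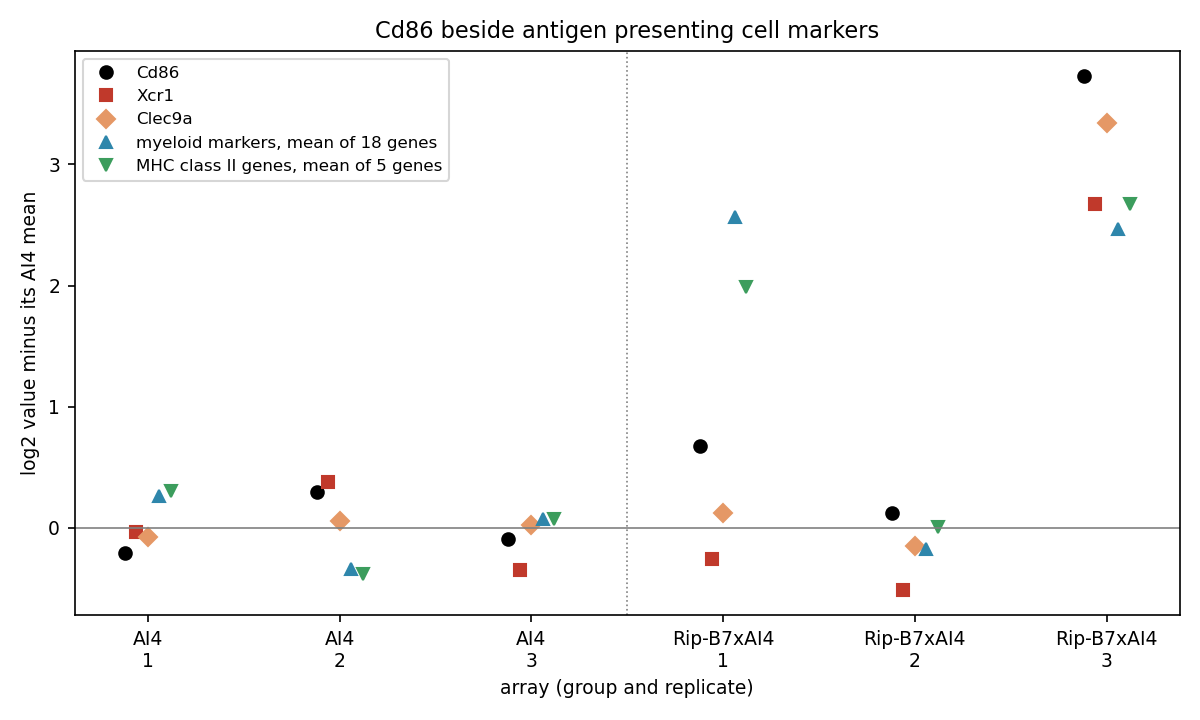
Log2 value minus its AI4 mean (y axis) in each of the 6 arrays (x axis) for Cd86, for the dendritic cell genes Xcr1 and Clec9a, and for the means of the 18 myeloid and 5 MHC class II genes. Cd86, Xcr1 and Clec9a are high in Rip-B7xAI4 replicate 3 alone, whereas the myeloid and MHC class II means are high in replicates 1 and 3. Xcr1 and Clec9a were picked from 10 dendritic cell markers after their values were seen, and the 10 did not move as 1 group.

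Cd80, the other ligand of Cd28 and Ctla4, followed a different order of arrays. Its brighter probe stood at 5.24, 5.83 and 5.91 in AI4 and at 6.53, 5.32 and 5.79 in Rip-B7xAI4. Here replicate 1 was the highest and the groups overlapped, with a difference of 0.22 ± 0.35 (SE; 95% interval -0.61 to 1.05; limma adjusted p = 0.779). It was -0.10 without Rip-B7xAI4 replicate 1. The dimmer probe of Cd80 stood at 4.77, 5.09 and 5.11 in AI4 and at 5.98, 5.59 and 5.42 in Rip-B7xAI4, so that the lowest Rip-B7xAI4 array exceeded the highest AI4 array. Such a gap between the groups was seen for 4.70% of the 21760 named probes. Its difference was 0.67 ± 0.20 (SE; 95% interval 0.19 to 1.16), with a limma p of 0.0136 before adjustment, where 4.41% of these probes were higher at p below 0.05, and an adjusted p of 0.570. This second probe lay below the brightness limit, with a mean of 5.325, but it is the one that the platform annotation ties to the RefSeq transcript of Cd80. The brighter probe carries no such transcript there. Whether the groups of Cd80 overlap thus depends on the probe, and the mean of both probes gave 0.45 ± 0.27 (SE; limma adjusted p = 0.588).

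Cd274, the ligand through which many tissues restrain PD-1 bearing T cells, was even across 5 of the 6 arrays. It stood at 7.89, 7.91 and 7.67 in AI4 and at 7.98, 6.79 and 7.95 in Rip-B7xAI4. Rip-B7xAI4 replicate 2 alone was low, 0.88 below the next array, a gap reached in that array by 13 tested genes (0.0932%). The means were 7.82 ± 0.14 (SD, n = 3) and 7.57 ± 0.68 (SD, n = 3). The difference was -0.25 ± 0.34 (SE; 95% interval -1.07 to 0.56; limma adjusted p = 0.740), and it turned to 0.14 without replicate 2. Myeloid markers were also lower in replicate 2, at 6.10, than in replicates 1 and 3. In AI4 their means were 6.54, 5.93 and 6.35, and their part in the Cd274 value was not tested.

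Pdcd1lg2, the second PD-1 ligand and the next coding gene after Cd274 on chromosome 19, varied least of the 8. It stood at 5.63, 5.48 and 5.35 in AI4 and at 5.36, 5.37 and 5.41 in Rip-B7xAI4. All 6 values lay within 0.28 of each other, and the mean of 5.435 was just under the limit for testing, while Icosl, the member nearest to that limit from above, had a mean of 5.549. In a fit with no filter its difference was -0.10 ± 0.15 (SE; 95% interval -0.45 to 0.24; limma adjusted p = 0.763). A probe this dim may lie near background, where a fall would not show.

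Icosl, the ligand of Icos, stood at 5.72, 5.64 and 5.30 in AI4 and at 5.63, 5.49 and 5.52 in Rip-B7xAI4. All Rip-B7xAI4 values fell inside the AI4 range. The difference was -0.01 ± 0.18 (SE; 95% interval -0.44 to 0.42; limma adjusted p = 0.985), the smallest of the members in size.

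Cd276, a mostly inhibitory ligand whose receptor is not settled, stood at 7.20, 7.06 and 7.0 in AI4 and at 6.82, 7.13 and 7.06 in Rip-B7xAI4. Rip-B7xAI4 replicate 1 was the lowest array and the rest lay together. The difference was -0.08 ± 0.17 (SE; 95% interval -0.49 to 0.32; limma adjusted p = 0.830).

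Vsir, made by myeloid cells and T cells, stood at 7.22, 7.18 and 7.60 in AI4 and at 7.78, 7.03 and 6.92 in Rip-B7xAI4. The Rip-B7xAI4 group held both the highest value, in replicate 1, and the lowest, in replicate 3. Myeloid markers were high in both of these arrays. The difference was -0.09 ± 0.27 (SE; 95% interval -0.74 to 0.56; limma adjusted p = 0.889).

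The members thus differed among themselves in how much they varied over the arrays. Vtcn1, Pdcd1lg2, Icosl and Cd276 spanned 0.28 to 0.42 on the log2 scale, Vsir 0.86, Cd274 1.19, Cd80 1.29 and Cd86 3.93. The median range over all tested genes was 0.83, and 3.07% had a range of 3 or more. The high or low array was a different one for Cd86, Cd80 and Cd274: Rip-B7xAI4 replicate 3, 1 and 2, in that order.

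**Figure D3:**
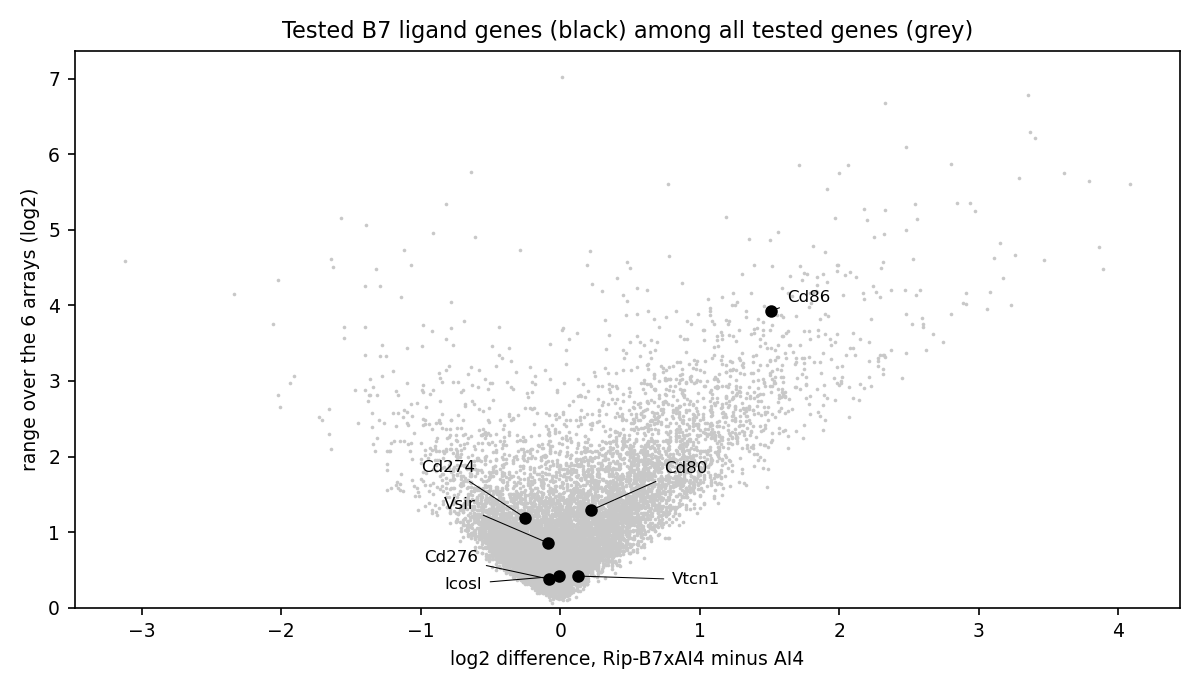
Range over the 6 arrays (y axis, log2) against the difference Rip-B7xAI4 minus AI4 (x axis, log2) for all 13950 tested genes (grey) and the 7 tested B7 ligands (black). All but Cd86 lie between -0.25 and 0.22 on the x axis, and Cd86 has a difference of 1.51 with a range of 3.93.

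Cd28, Ctla4, Icos and Pdcd1, the T cell receptors of these ligands, and Btla, a related inhibitory receptor with another ligand, all had positive differences, as did 39.0% of tested genes, though 0 of the 5 passed over all genes. Pdcd1 stood at 6.28, 6.30 and 6.54 in AI4 and at 9.11, 9.59 and 7.41 in Rip-B7xAI4. Icos stood at 6.37, 7.16 and 8.48 in AI4 and at 9.04, 8.67 and 8.52 in Rip-B7xAI4. For both, every Rip-B7xAI4 array lay above every AI4 array, as for 5.99% of tested genes. The differences were 2.33 ± 0.54 (SE) for Pdcd1 and 1.41 ± 0.51 for Icos, with limma adjusted p = 0.337 and 0.543. Cd28 (0.38 ± 0.43), Ctla4 (0.67 ± 0.79) and Btla (0.60 ± 0.46) had groups that overlapped. The median over the 5 genes was 0.67. Leaving out 1 array moved these differences widely: Cd28 ranged from 0.13 (without Rip-B7xAI4 replicate 1) to 0.79 (without replicate 3), Btla from 0.17 (without AI4 replicate 1) to 0.92 (without AI4 replicate 3), Ctla4 from 0.00 (without AI4 replicate 2) to 1.38, Icos from 0.92 to 1.98 and Pdcd1 from 1.89 to 2.98. The contrast between ligands and receptors was not itself tested.

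**Figure D4:**
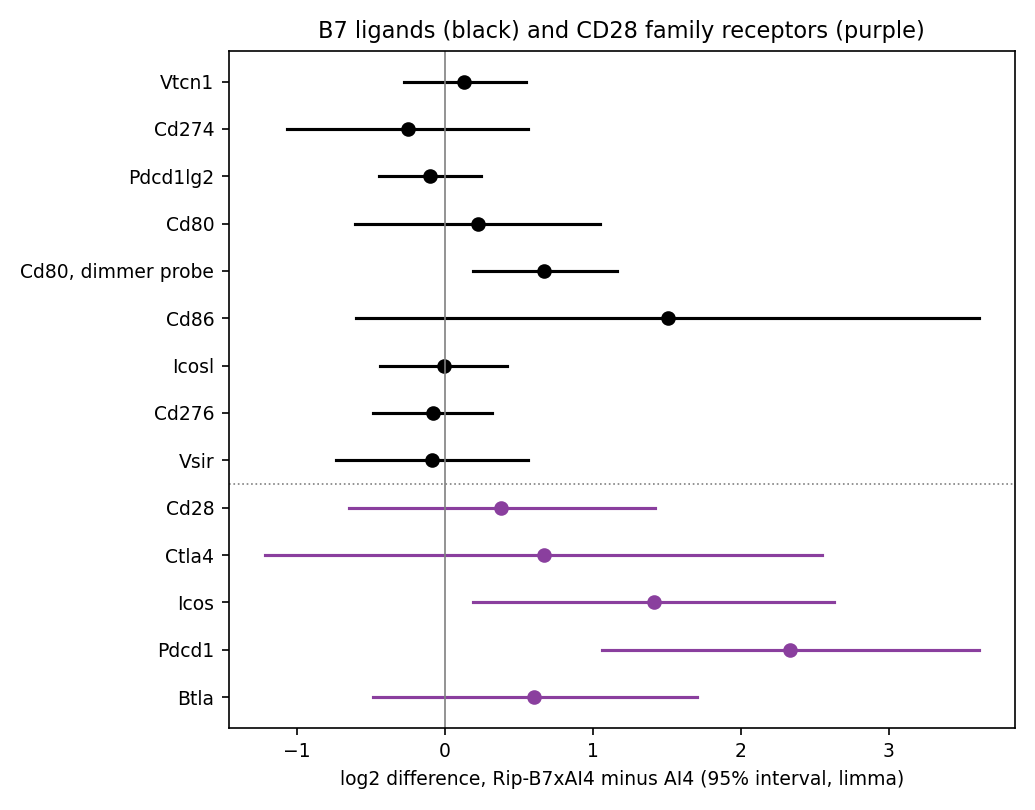
Log2 difference Rip-B7xAI4 minus AI4 (x axis, point) with its 95% interval from limma (line) for the 8 B7 ligands and the dimmer Cd80 probe (black) and for Cd28, Ctla4, Icos, Pdcd1 and Btla (purple). The intervals of the 8 ligands at their brighter probe span 0, while those of the dimmer Cd80 probe, Icos and Pdcd1 lie above 0 before adjustment for multiple tests.

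Of 6 further binding partners of B7 ligands, all tested, 0 passed and 0 had groups that did not overlap. Selplg, which binds Vsir at acid pH, differed by 0.43 ± 0.34 (SE), Igsf11, another Vsir partner, by -0.26 ± 0.24, and Lgals9 (galectin-9) by -0.17 ± 0.20. Among 12 tested signalling genes downstream of the receptors, 0 passed, and the groups did not overlap for 2, both lower, where 11.9% of tested genes were lower in this way. They were Prkcq, a kinase of the CD28 pathway, at -0.86 ± 0.27 (SE), and Grap2, an adaptor, at -0.55 ± 0.28. Cblb, a ubiquitin ligase that CD28 signals counter, differed by 1.15 ± 0.41, and Ptpn11, the phosphatase SHP-2 that PD-1 recruits, by 0.62 ± 0.31.

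Of 15 tested genes known to set the level of Cd274, 0 passed, and the groups did not overlap for 2, both lower, a share near the 11.9% of all tested genes. Ifngr2, a chain of the interferon gamma receptor, stood at 7.16, 8.05 and 8.76 in AI4 and at 6.91, 6.18 and 6.83 in Rip-B7xAI4. Its difference was -1.35 ± 0.42 (SE; limma adjusted p = 0.496). Cmtm4, which shields PD-L1 protein from breakdown, differed by -0.30 ± 0.17, its related gene Cmtm6 by 0.14 ± 0.43 and the kinase gene Jak2 by 0.89 ± 0.47. Jak2 ranged from 0.46 to 1.41 when 1 array of AI4 or Rip-B7xAI4 was left out, and the mean over the probes of Cmtm4 gave -0.07. Irf1, an interferon-induced activator of Cd274, stood at 10.15, 7.99 and 7.70 in AI4 and at 8.58, 6.72 and 6.68 in Rip-B7xAI4. Its groups overlapped, with a difference of -1.28 ± 0.78 (SE; limma adjusted p = 0.59). Irf1 was highest in AI4 replicate 1, and Cd274 in that array was 7.89. A link between Irf1 and Cd274 in these arrays was not tested.

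Butyrophilins and other immunoglobulin genes related to the B7 family gave 0 passes among 9 tested, with a median of -0.10, and 1 of them, Btnl2, was lower without overlap, near the 11.9% of all tested genes. Igsf6, a myeloid gene, differed by 1.34 ± 0.68 (SE), Btnl2 by -0.28 ± 0.16 and Mog by -0.20 ± 0.21. In Rip-B7xAI4 Igsf6 reached 8.63 in replicate 1 and 9.04 in replicate 3, and it stood at 6.38 in replicate 2 and between 6.21 and 6.97 in the AI4 arrays. Its difference ranged from 0.82 to 2.16 when 1 array was left out and was -0.30 without replicates 1 and 3. The myeloid markers were high in the same arrays. Of 11 TNF family genes and other partners of antigen presenting cells, 4 were tested and 0 passed. Lgals3 (galectin-3) differed by 0.90 ± 0.22 (SE; limma adjusted p = 0.404). Its groups did not overlap, and 5.99% of tested genes were higher in this way. Tnfrsf14, the ligand of Btla, differed by 0.25 ± 0.34, and Cd40 by -0.11 ± 0.17.

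Genes with the nearest pattern to a member were sought by the root mean square difference of centred log2 values over the 6 arrays, for the 3 tested members with a range of 1 or more. For Cd86 they were Alas2 (0.28), the heme synthesis enzyme of red cell precursors, BC028528 (0.29) and Myo9a (0.29). All of these stood at 9.11 to 9.92 in Rip-B7xAI4 replicate 3 and at 7.15 or less in the other arrays. For Myo9a this holds for its brightest probe, with a difference of 1.13, whereas the mean of its probes gave 0.17 ± 0.34 (SE). For Cd274 they were Mnat1, Asah2 and Mafk, each at 0.18, and for Cd80 Prrc2a (0.10), Riox1 (0.11) and Mccc2 (0.11). With 6 arrays and many genes some patterns come close by number alone.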

How the data were processed

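Total RNA of 6 samples, 3 AI4 and 3 Rip-B7xAI4, was measured on single-colour Affymetrix arrays. Affymetrix Expression Console was used, per the submitters' processing notes; the sources used here do not give its version or algorithm. The deposited values are normalized and were read as log2 from their range, with no further normalization. No background measure was used, so dim probes may lie at background level. Of 28325 probes, 21760 had 1 gene symbol in the platform annotation, 1621 several and 4944 none. Of 19929 genes, the 30% with the lowest mean were not tested.

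Groups and replicate numbers came from the titles. The groups were compared with limma 3.58.1 in R 4.3.3 (lmFit and eBayes, two-sided, Benjamini-Hochberg over all 13950 tested genes, limit 0.05). Members below the filter took their difference and error from a fit with no filter. The fit was tested on simulated data. Members and lists were chosen with earlier results of these data known. Named from each pathway list were all 5 receptors and otherwise up to 3 tested genes by smallest p. Grap2, Cmtm6 and Irf1, and the genes that share the Cd86 gap, were named after their values were seen. Marker genes come from cell type lists, and genes of like pattern are the 3 nearest by root mean square difference. Alternatives were the replicate block, leaving out arrays, quantile normalization, median centring, other filters, other probe rules, eBayes with trend and robust, and array weights. A pseudocount did not apply to log2 values.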

Additional observations from a re-analysis of the deposited data

How the results depend on the processing

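No tested B7 ligand passed under any of the 16 alternatives. By limma, 1 member had an unadjusted p below 0.05 under each of 2 of them. These were Cd86 without Rip-B7xAI4 replicate 2 (2.20, adjusted p = 0.621) and Cd274 (-1.04, adjusted p = 0.843) without both Rip-B7xAI4 replicates 1 and 3. The latter takes the lone array to have the spread of the AI4 group. A ligand below a filter was not tested and could not pass. Tested were 4 of the 8 under the 50% filter on dim genes, all 8 with no filter and 7 under each other alternative. The 3 arrays per group and the unknown background of dim probes limit all of this.

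The count of genes called by limma, 1 in all arrays, was 0 with the replicate block (993 at an unadjusted p below 0.05), 0 without Rip-B7xAI4 replicates 1 and 3 together (614), 38 with array weights, and 0 to 22 when 1 array was left out, with 22 without Rip-B7xAI4 replicate 2. The block changed no call of a B7 ligand. The titles give a replicate number and do not say whether samples with the same number belong together. Their deviations from the group means correlated at -0.08, 0.06 and -0.22, and those of samples with different numbers at -0.1 to 0.2. With 3 arrays per group these values cannot decide whether the samples were paired.

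Vtcn1 (0.03 to 0.23), Pdcd1lg2 (-0.17 to -0.02) and Cd86 (0.12 to 2.20) kept their sign under all 15 alternatives that refit single genes. Some of the 15 could not change a sign. The replicate block, the other filters and eBayes with trend and robust leave the difference as it was. So does the mean of the probes for a gene with 1 probe. Cd274, Cd80, Icosl, Cd276 and Vsir did not keep their sign under all 15. Leaving out 1 array gave -0.46 to 0.14 for Cd274, -0.10 to 0.50 for Cd80, -0.14 to 0.08 for Icosl, -0.15 to 0.01 for Cd276 and -0.36 to 0.07 for Vsir. Icosl was 0.06 with quantile normalization and 0.06 with median centring. With array weights Cd80 was -0.16, Prrc2a -0.12 and Mccc2 -0.01. Without Rip-B7xAI4 replicates 1 and 3 together Cd80 was -0.34, Cd276 0.04, Igsf6 -0.30, Tnfrsf14 -0.09, Prrc2a -0.22, Riox1 -0.24, Mccc2 -0.22, Alas2 -0.50, BC028528 -0.23, Myo9a -0.06 and Igsf11 0.00. The cause was not tested. Leaving out 1 array, Ctla4 ranged from 0.00 to 1.38, Tnfrsf14 from -0.09 to 0.43, Mnat1 from -0.40 to 0.19, Asah2 from -0.38 to 0.00, Prrc2a from -0.06 to 0.38, Mccc2 from -0.04 to 0.50, Alas2 from -0.05 to 1.79 and Myo9a from 0.00 to 1.72. The dimmer Cd80 probe kept a positive difference throughout, from 0.51 to 0.80, with adjusted p from 0.213 to 0.960.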
